A study of Homo sapiens with 2 samples.

Results

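The Hippo pathway genes AMOT, AMOTL1, AMOTL2, LATS1, LATS2, YAP1 and TEAD1 were examined for N6-methyladenosine (m6A), the most common internal modification of messenger RNA. They were taken by gene name from the deposited lists of methylated sites. All 7 had listed sites in both files, out of 11406 named genes with a site in either file. The lists come from GLORI, a chemical assay that turns unmethylated adenosine into inosine, which is read as G, while m6A is still read as A. The level of a site is therefore the share of its A and G reads that show A, and it was measured at single adenosines. The cells were HEK293T, a line of human embryonic kidney origin that carries viral transforming genes. They form 1 group, with wild-type genotype, GLORI+ treatment and Day 0 as the time, in 2 replicates; 100 to 200 ng of oligo(dT)-purified mRNA went into each library. No second condition was given, and the lists hold no expression values against which the cell line could be checked.

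The Hippo pathway restrains tissue growth. The kinases LATS1 and LATS2 phosphorylate the coactivator YAP1, which keeps it out of the nucleus and marks it for degradation. Unphosphorylated YAP1 enters the nucleus and binds TEAD factors such as TEAD1, which bring it to growth genes. The angiomotins AMOT, AMOTL1 and AMOTL2 are scaffolds at tight junctions and on actin that bind YAP1 and also activate LATS kinases. m6A itself is laid down mostly by the METTL3 complex and is known to affect the splicing, stability and translation of mRNA.

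Replicate 1 listed 105 sites in the 7 genes and replicate 2 listed 116. Of these, 93 were the same adenosine in both files (shared sites). This is 88.6% of the replicate 1 sites and 80.2% of the replicate 2 sites, against 83.5% and 74.1% over all listed sites. The shared sites of the 7 genes had a median of 40 reads in replicate 1 and 47 in replicate 2, against 40 and 42 over all listed sites of each file. A listed site had at least 15 reads, 5 A reads and a level of 10%, so a site without an entry may lack either methylation or depth. Fisher's exact test (two-sided) on the A and G counts, adjusted over all 60462 shared sites, separated the replicates at 0 of the 93 sites (smallest adjusted p = 1), as it did at 0.0% of all shared sites. At an unadjusted p under 0.05 it separated 5 of the 93 (5.38%), against 3.06% of all shared sites, and a chi-square test scaled by dispersion called 0 after adjustment. The mean chi-square of the difference was 0.963 in the 7 genes and 0.931 over all shared sites. The adjusted test recovered 51.5% of simulated 40-point differences, so its 0 calls do not show equal levels at single sites. By the mean chi-square, the files differed about as much as read sampling gives. They were counted as 1 sample, so levels are given for each file or as the mean of both, with counting errors only. The labels do not say whether the replicates were separate cultures.

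By mean level over shared sites, the 7 genes ranged from AMOT, which had the most sites, to LATS2 and LATS1, which had fewer. In AMOT the 28 shared sites averaged 34.0% ± 0.50 (counting standard error, SE; both files as 1 sample). AMOTL1 had 17 at 43.1% ± 1.2 and AMOTL2 had 12 at 50.3% ± 1.8. LATS1 had 17 at 63.8% ± 1.4 and LATS2 had 5 at 60.3% ± 3.3. YAP1 had 5 at 44.4% ± 2.2, and TEAD1 had 9 at 56.9% ± 1.8. AMOT thus had the lowest mean and the kinases the highest, with TEAD1 next to the kinases. Which weak sites could be listed depended on depth. Among sites at 40% or more in both files, the means were 75.3% in AMOT, 76.0% in LATS1 and 60.3% in LATS2. AMOTL1 and YAP1 were not separated: with reads summed over sites AMOTL1 had 41.0% and YAP1 35.1%, the other way round. The order of the kinases also turned in replicate 2, where LATS2 had 62.0% and LATS1 60.6% over the shared sites. Over all sites listed in replicate 2, shared or not, LATS2 had 66.8% and LATS1 56.3%.

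Each gene was set beside the genes in its own decile of gene coverage, as the authors list that coverage. All 7 had more shared sites than the median of their decile. The 7 genes were chosen with earlier results of these data known, and the part of that choice was not tested. AMOT stood out most, with 28 sites against a median of 2, more than 98.3% of the 952 genes in its decile. AMOTL2 exceeded 96.2% of its decile, LATS1 92.8%, LATS2 89.7% and AMOTL1 88.8%. TEAD1 exceeded 67.9%, and YAP1 50.6%, with 5 sites against 4. For the mean level there was no such common direction: 4 of the 7 lay above the median of their decile. LATS1 exceeded 79.8% of its decile and TEAD1 70.1%. AMOT, with 34.0% against a decile median of 31.02%, exceeded 54.9%, and LATS2, with 60.3% against 58.6%, exceeded 53.0%, so both were near the middle of genes of like coverage. AMOTL1 exceeded 40.7%, AMOTL2 36.8% and YAP1 33.8%. The counts are not per length, and a longer mRNA offers more adenosines.

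**Figure D1:**
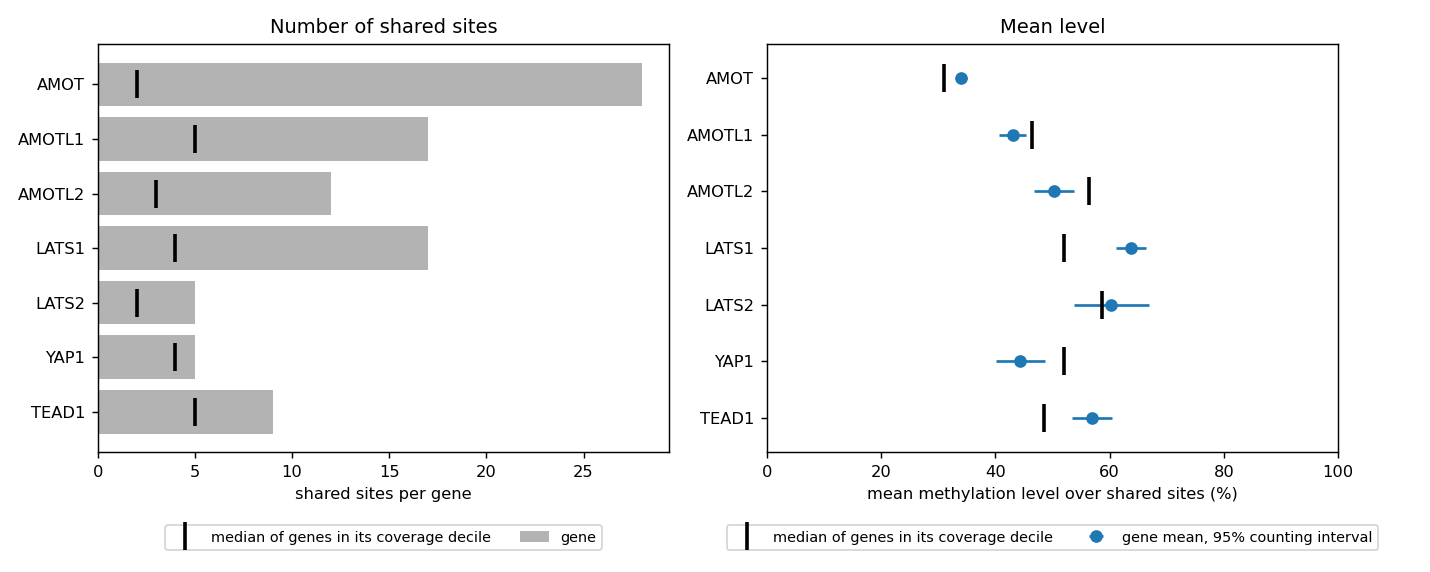
Number of shared sites (left, bars) and mean methylation level in percent with its 95% counting interval (right, points) for the 7 genes; black marks give the median of the genes in the same decile of gene coverage. All 7 bars pass their mark, and 4 of the 7 means lie above theirs.

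AMOT encodes angiomotin, the founding scaffold of its family. It lies on chromosome X (112774877 to 112840831, minus strand, GRCh38) and was the most deeply covered of the 7 genes, with a median of 150 reads per shared site in replicate 1 and 183.5 in replicate 2. Its sites had a median level of 23.6%; 12 of 28 lay under 20%, and 3 at or above 80%. The highest was position 112822633, with 94.6% in replicate 1 (74 reads) and 96.0% in replicate 2 (99 reads). Its neighbour 8 nt upstream, 112822641, had 90.1% and 91.9%, so a close pair was almost fully methylated. The third strong site, position 112778445, had 91.7% (24 reads) and 91.4% (35 reads). The lowest shared site was position 112776983, with 10.2% and 10.3%, just above the limit of the lists. The site with the most reads, 112815807, had 14.3% (680 reads) and 15.1% (883 reads), with a 95% Wilson interval of 13.0 to 16.6% on the summed counts. The widest gap between the replicates at an AMOT site with at least 100 reads in both files was at 112779558, a site named after its values were seen, with 41.95% (174 reads) and 29.4% (235 reads; Fisher's exact test, p = 0.00881, adjusted p = 1).

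The sites of AMOT were not spread evenly over its genomic span, which includes introns. Their spread along the mRNA was not analysed. With a run defined as shared sites no more than 1000 nt apart, 10 sites fell in 466 nt (112822425 to 112822890), where levels ran from 10.5% to 95.3% with a median of 16.5%. Another 13 fell in 1269 nt (112778304 to 112779572), from 12.1% to 91.5% with a median of 28.2%. In each run, strong sites stood among weak ones. Only replicate 1 listed 2 further AMOT sites and only replicate 2 another 2, all 4 between 10.1% and 17.2%.

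One AMOT site, position 112840831, is the annotated first nucleotide of the gene. It had 36.2% in replicate 1 (207 reads) and 34.6% in replicate 2 (246 reads), with an interval of 31.1 to 39.8%. Its surroundings are shown because this is the one shared site of the 7 genes in the RefSeq start windows (GRCh38.p14, 250 bases before to 50 after each gene's start; none was listed for TEAD1), with the methylated adenosine in capitals and the bases before it upstream of the annotated start, at chrX:112840821-112840841 on the minus strand:
AMOT first nucleotide: cccctcccctAcctcccatcc
The adenosine sits in a stretch of pyrimidines and is followed by C. The DRACH consensus of the METTL3 complex is any base but C, then A or G, then AC, then any base but G. Read on the genome, it was not met, since the base before the adenosine is T. The same held for most sites of this kind. Over all genes, 345 shared sites in 343 genes lay at a first nucleotide of these windows. Of them 1.45% met the consensus, against 46.5% of the 202 shared sites at nucleotides 6 to 48. At a first nucleotide the bases before the adenosine lie outside the annotated transcript, so this contrast cannot test the consensus in mRNA. An A followed by C was found at 23.8% of the first-nucleotide sites and 59.9% of the others, against 22.2% of all windows that start with A. All sites read from the windows were A on the listed strand (100%). At 35.4% the AMOT site was above 65.5% of the first-nucleotide sites, whose median was 29.2%. As background, the first nucleotide after the cap can carry m6Am, which has a further methyl group on the ribose and is made by the enzyme PCIF1; which of these modifications was read at this site was not tested.

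AMOTL1, a second angiomotin that binds YAP1, lies on chromosome 11 (94706460 to 94876748, plus strand). Its median depth was 40 and 47 reads. The strongest site was position 94799878, with 93.8% in replicate 1 (32 reads) and 97.8% in replicate 2 (45 reads). The weakest shared site was 94768489, with 12.1% and 14.8%, which lies 133 nt after a start listed in the RefSeq windows. The most covered was 94800104, with 31.2% (77 reads) and 34.4% (96 reads). All 3 sites of AMOTL1 at or above 80% fell in 1 run of 8 sites within 650 nt (94799534 to 94800183), where the median was 52.5%. A later run of 6 sites, 4117 to 5923 nt before the annotated gene end, reached no more than 62.0% and had a median of 34.3%. The last shared site, 198 nt before the end, had 14.5% and 12.9%. The run of 8 sites also held weak ones, with levels from 15.5% to 95.8%. Both runs are placed on the genomic span with its introns.

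AMOTL2 is the third angiomotin and a known transcriptional target of YAP1. It lies on chromosome 3 (134355345 to 134375417, minus strand). All 12 shared sites fell in 1 run of 1261 nt (134356426 to 134357686), 1081 to 2341 nt before the annotated gene end. Position 134357284 showed A in every read, 100% in replicate 1 (16 reads) and in replicate 2 (18 reads); the interval reaches down to 89.8%. Position 134357686 followed with 87.8% (41 reads) and 87.2% (47 reads). The weakest shared site was 134356791, with 17.9% and 18.5%, and the most covered was 134356958, with 32.0% (50 reads) and 29.3% (41 reads). AMOTL2 was shallow, with medians of 22.5 and 24 reads. Of its 20 sites 12 were shared and 8 were listed in 1 file only, against 4 of 32 in AMOT. Over all genes and unnamed sites, 60462 of the 93541 sites in either file were shared.

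LATS1 is a kinase that phosphorylates YAP1. It lies on chromosome 6 (149658153 to 149718101, minus strand), and its shared sites averaged 66.95% in replicate 1 and 60.6% in replicate 2. Of its 17 shared sites, 6 were at or above 80% (35.3%, Wilson interval 17.3 to 58.7%), against 19.8% of all shared sites, and 0 were under 20%. The strongest shared site was position 149683940, with 89.1% in replicate 1 (46 reads) and 92.3% in replicate 2 (39 reads). The weakest shared site was 149683427, with 19.4% (62 reads) and 25.9% (81 reads), which was also the most covered. Both belong to a run of 10 sites in 1038 nt (149683427 to 149684464), which held 5 of the 6 sites at or above 80% and had a median of 74.8%. The run lies 25274 nt or more from the annotated gene end, and 1 of the 17 sites fell in the last 10% of the gene. The largest gap between the replicates in any of the 7 genes was at LATS1 position 149702062, with 63.2% (19 reads) and 29.6% (27 reads; Fisher's exact test, p = 0.0355, adjusted p = 1).

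LATS2, the paralogous kinase, is itself induced by YAP1. It lies on chromosome 13 (20973036 to 21061586, minus strand) and was the least covered, with medians of 18 and 21 reads. At the median depth of its sites, the limit of 5 A reads allows no level under 24.4%. Its strongest shared site was position 20988707, with 73.1% (26 reads) and 87.5% (16 reads), which was 1 of 3 shared sites within 144 nt. The weakest shared site was 20981505, with 46.7% (15 reads) and 45.0% (20 reads). The most covered was 20988584, with 47.8% and 56.5% at 23 reads each. The other 2 shared sites averaged 52.1% and 70.9%. Of the 11 listed LATS2 sites 5 were shared, against 60462 of all 93541 listed sites. The other 6 were in 1 file only, among them position 20989142 with 100% of 19 reads in replicate 2 (interval 83.2 to 100%). The deposited conversion rate of adenosine was lowest in LATS2, at 95.02% and 94.96% in the files, against 96.3 to 97.9% in the other 6 genes. Its part in the levels of LATS2 was not tested.

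YAP1, the coactivator on which the pathway acts, lies on chromosome 11 (102110447 to 102233424, plus strand). It had 5 shared sites and 1 listed in replicate 2 only. The strongest was position 102229954, with 90.5% in replicate 1 (21 reads) and 88.9% in replicate 2 (27 reads). The weakest was 102114243, which was also the most covered, with 17.5% (80 reads) and 13.5% (74 reads). The other 3 were 102229776 at 37.8% and 16.98%, 102229786 at 53.6% and 51.4%, and 102229879 at 33.3% and 40.5%. All but the weakest lay within 179 nt, between 3470 and 3648 nt before the annotated gene end. YAP1 thus had a single strong site beside 4 of intermediate or low level.

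TEAD1, a DNA-binding partner of YAP1, lies on chromosome 11 (12674421 to 12944737, plus strand). Its shared sites fell at both ends of the gene: 3 in the first 10% and 6 in the last 10% of 270317 nt. The 3 near the start were the weakest as a run, with a median of 31.6%. Among them position 12674428, 7 nt after the annotated first nucleotide, was the lowest shared site of the gene, with 26.3% (19 reads) and 33.3% (27 reads). At the other end, position 12942454 was the highest, with 97.7% in both files (43 reads each, interval 91.9 to 99.4%). The most covered, 12942564 in the same run, had 46.2% (65 reads) and 51.5% (66 reads). The run of 4 sites near the end (12942445 to 12942564) had a median of 62.8%. Only replicate 1 listed 2 further TEAD1 sites and only replicate 2 another 3, from 16.1% to 79.2%.

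**Figure D2:**
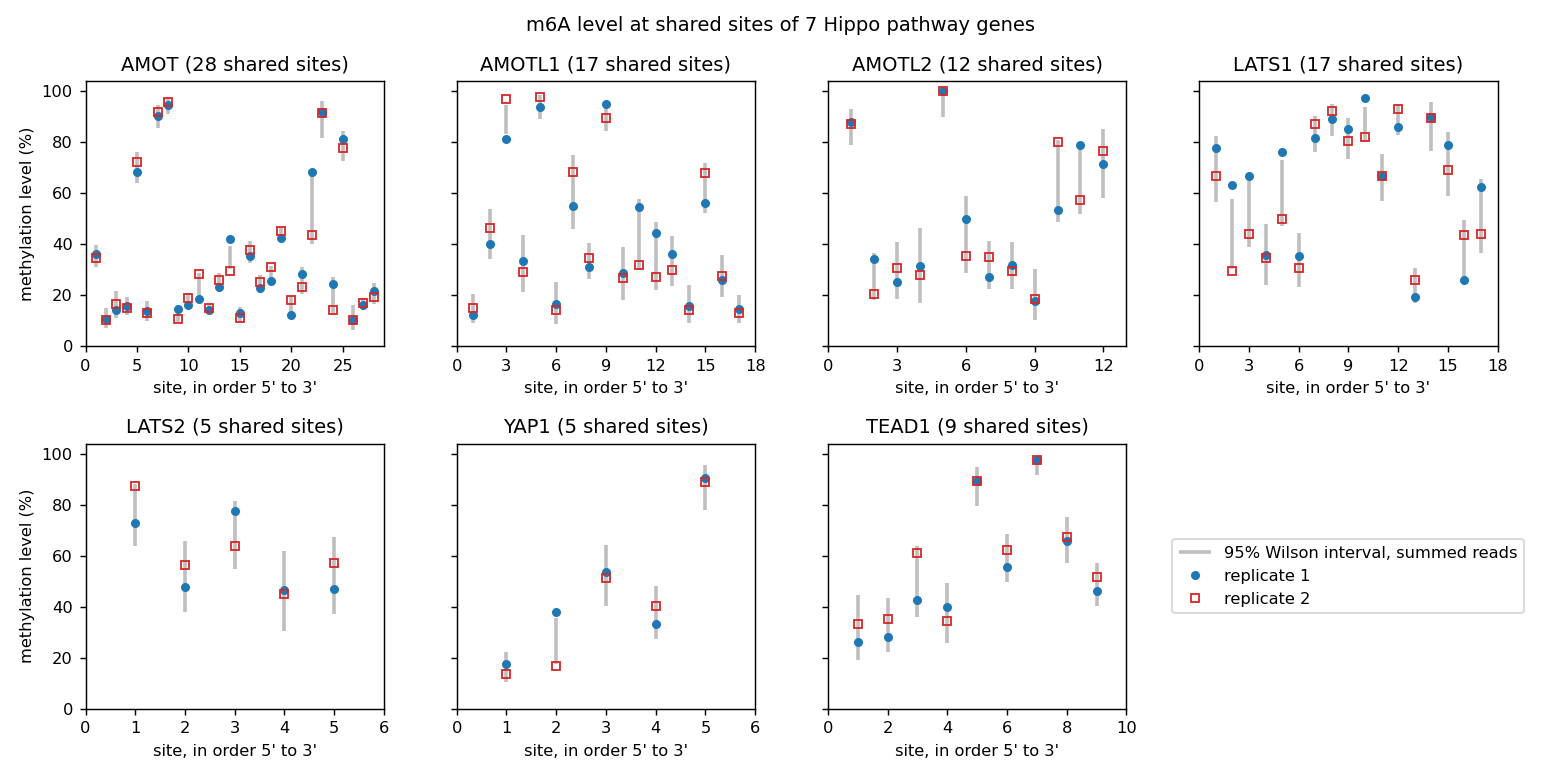
Methylation level in percent of every shared site of the 7 genes, in order from 5′ to 3′, with replicate 1 as filled circles, replicate 2 as open squares and the 95% Wilson interval of the summed reads as grey bars. Levels within a gene range widely; AMOT has 12 of 28 sites under 20% and LATS1 has 0 of 17.

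Along the genes, 45 of the 93 shared sites (48.4%) were in the final 10% of their gene's span, against 44.1% of shared sites over all protein-coding genes. The share was uneven among the members. In AMOT 16 of 28 lay there, in AMOTL1 8 of 17, in AMOTL2 8 of 12, in TEAD1 6 of 9 and in YAP1 4 of 5. LATS1 had 1 of 17 and LATS2 2 of 5. These shares are of the genomic span with its introns; exon, intron and UTR positions were not analysed here.

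Over the 7 genes together the median level was 37.1% (quartiles 25.6% and 70.2%), against 44.6% over all shared sites. Sites at or above 80% made up 18 of 93 (19.4%), against 19.8% of all shared sites. Sites under 20% were also 18 of 93 (19.4%), against 15.2%. All 20 sites that reached 100 reads in both files belonged to AMOT, and their median was 21.8%, against 31.6% for all shared sites of that depth. With 50 to 99 reads in the shallower file the 12 sites of the 7 genes also had the lower median, 24.7% against 36.1%. Among sites with 30 to 49 reads in the shallower file the order was the other way, with 59.0% in 27 sites of the 7 genes and 43.3% in all shared sites. At 15 to 29 reads the medians were 52.9% in 34 sites and 56.1%.

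Between genes, 18 of the 21 pairs of mean levels had a 95% counting interval of the difference that left out 0. The other pairs were LATS1 and LATS2 (LATS1 higher by 3.50 points, interval -3.58 to 10.6), LATS2 and TEAD1 (LATS2 higher by 3.36, -4.07 to 10.8) and AMOTL1 and YAP1 (a difference of -1.35, -6.31 to 3.61). These intervals do not show equal levels. All 21 intervals cover read counting only and take the sites of a gene as fixed and independent. The same share over other gene pairs was not computed, so 18 of 21 cannot be read as particular to these genes. AMOT lay 29.7 points below LATS1 (AMOT minus LATS1 -29.7, interval -32.6 to -26.9). Depth moved with these differences, and its part in them was not tested. A site of 15 reads must reach 33.3% to hold 5 A reads, so a deep gene shows weak sites that a shallow one cannot. A level of 40% can be listed at every depth. Sites at 40% or more in both files numbered 12 of 17 in LATS1 and 7 of 28 in AMOT. They were 6 of 17 in AMOTL1, 5 of 12 in AMOTL2, 5 of 5 in LATS2, 2 of 5 in YAP1 and 6 of 9 in TEAD1. The total in each of these shares also depends on depth. The same share over all shared sites is not given here, so none of these shares can be read as particular to its gene. The mean of the sites at 40% or more in both files was 75.3% in AMOT, 76.0% in LATS1 and 60.3% in LATS2. It was 74.0% in AMOTL1, 79.2% in AMOTL2, 71.1% in YAP1 and 68.9% in TEAD1. Among those sites AMOT was thus close to LATS1, and LATS2 had the lowest mean. With at least 50 reads in both files, the means fell to 31.5% in AMOT, 21.7% in AMOTL1, 22.6% in LATS1 (1 site), 15.5% in YAP1 (1 site) and 48.8% in TEAD1 (1 site).

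**Figure D3:**
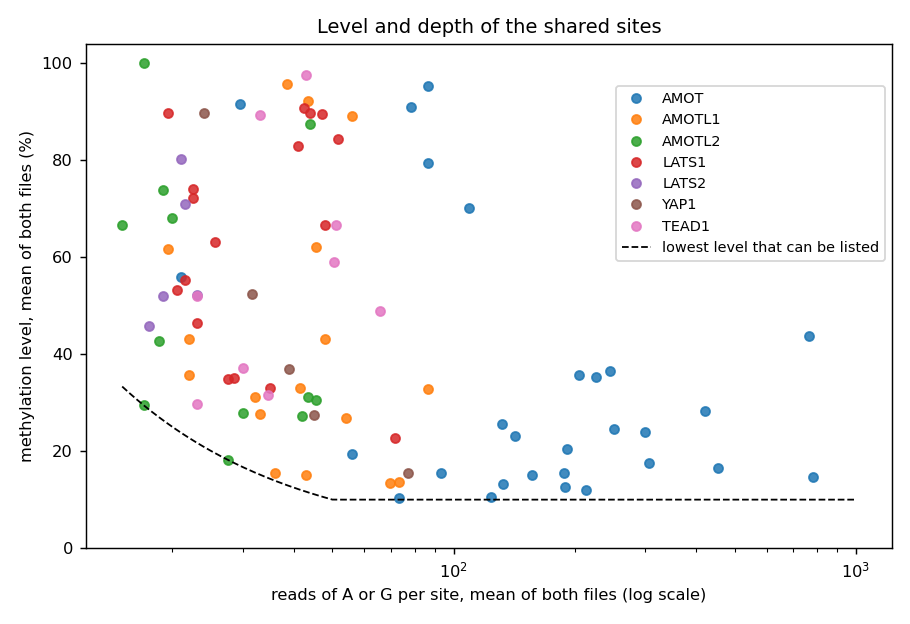
Mean methylation level in percent of each shared site against its reads of A or G (mean of both files, log scale), coloured by gene; the dashed line is the lowest level that 5 A reads and a level of 10% allow. The weak sites on the right belong to AMOT, whose 20 sites with at least 100 reads in both files had a median of 21.8%.

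Neighbouring adenosines of the same mRNA often differed widely. The 7 genes had 13 pairs of adjacent shared sites at most 10 nt apart, and Fisher's exact test on the summed A and G counts, adjusted over all 3390 such pairs in named genes, called 9 of them. Over all such pairs 67.4% were called, so the count in the 7 genes is near the background. The median absolute difference was 24.5 points in the 13 pairs and 23.5 points in all. Many reads cover both sites of a pair, which the test does not take into account.

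The widest contrast was in AMOT, where position 112822700 had 68.3% and 72.2% in the replicates and position 112822692, 8 nt downstream, had 13.7% and 12.8% (Fisher's exact test, adjusted p = 2.94e-38). In TEAD1, 12937305 had 40% and 34.3%, and 12937309, 4 nt downstream, had 89.3% and 89.5% (Fisher's exact test, adjusted p = 2.05e-09). In AMOTL1, 94799534 had 40% and 46.4%, and 94799540 had 81.3% and 96.9% (Fisher's exact test, adjusted p = 1.13e-12). In these 3 pairs the weaker and the stronger site kept their order in both files. LATS1 had the stronger site upstream, with 78.9% and 69.2% at 149679935 and 26.1% and 43.8% at 149679931 (Fisher's exact test, adjusted p = 5.54e-04). YAP1 had 37.8% and 16.98% at 102229776, and 53.6% and 51.4% at 102229786 (Fisher's exact test, adjusted p = 0.00204). The downstream site was the stronger in 5 of the 9 called pairs, against 48.97% of called pairs over all genes.

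AMOT also held a dense group of 6 sites within the 42 nt at the 5′ end of its longer run. Reading downstream from 112779572, the mean levels were 24.7%, 35.7% at 112779558, 12.1% at 112779553, 36.5% at 112779546, 24.0% at 112779536 and 28.2% at 112779531. Of the 4 adjacent pairs at most 10 nt apart, 3 were called, and the pair 112779536 and 112779531 was not (23.98% and 28.2%, Fisher's exact test, adjusted p = 0.110). The other AMOT pair not called was 112822641 and 112822633, with 91.0% and 95.3% (Fisher's exact test, adjusted p = 0.171). In AMOTL2, the pairs 134356737 and 134356733 (66.7% and 68.0%) and 134356965 and 134356958 (31.1% and 30.6%) were not called (Fisher's exact test, adjusted p = 1 for each) and changed order between the replicates.

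**Figure D4:**
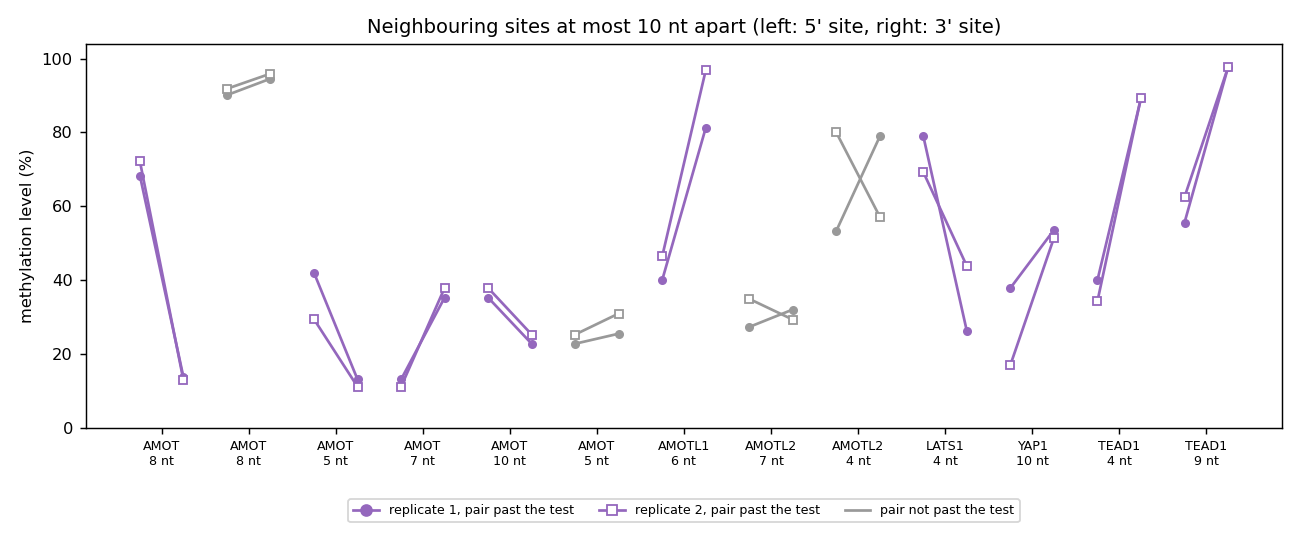
Methylation level in percent at the 5′ site (left end of each line) and the 3′ site (right end) of the 13 pairs at most 10 nt apart, replicate 1 with filled circles and replicate 2 with open squares. Coloured lines are the 9 pairs called by Fisher's exact test after adjustment; the steepest joins 70.2% and 13.3% in AMOT.

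Other genes of the pathway were taken from a list of 49 symbols grouped by role, and 35 of them had a shared site, 244 sites in all. Another 3 were listed in 1 file only, and 11 had no entry. Genes with a shared site had a median of 5 sites, against 12 in the 7 members and 4 over all 9521 genes with one. The median of their mean levels was 42.7%. The list, like the 7 members, was chosen with earlier results of these data known. Among upstream regulators, 15 of 19 had a shared site. LIMD1, a LIM protein that binds LATS kinases, had the most of the list, 34 sites at 45.7% ± 0.64. FAT1, a giant protocadherin, had 26 at 66.6% ± 1.2, and DLG5, a polarity scaffold, had 18 at 48.6% ± 1.3. PTPN14, a phosphatase that binds YAP1, had 11 at 49.1% ± 1.8. The 9 upstream kinases and adaptors with sites, of 13, included STK4, which phosphorylates LATS kinases, with 11 sites at 42.7% ± 1.7.

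In the group of coactivators and partners, 6 of 8 genes had shared sites, but few: 16 in all, with mean levels from 24.5% to 33.3%. WWTR1, which encodes TAZ, the paralog of YAP1, had 2 sites at 24.5% ± 3.9. TEAD2, TEAD3 and TEAD4, named here beside TEAD1 after their values were seen, had 2 each at 32.0% ± 4.0, 24.8% ± 3.6 and 30.8% ± 2.8. Their median depth was 33.5, 38 and 67.5 reads, against 32 and 38 reads in the files for TEAD1, which had 9 sites at 56.9% ± 1.8. TEAD1 thus had the most sites and the highest mean of the 4 TEAD genes. Of the degradation genes 3 of 4 had sites, and CSNK1D, a casein kinase, had 16 at 42.9% ± 0.70. Of the 5 transcriptional targets, CCN1 had 2 sites at 54.3% ± 3.3 and BIRC5, which encodes survivin, had 11 at 33.3% ± 1.0. CCN2, a standard readout of YAP1 activity, had no listed site, which sets no upper limit on its methylation.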

How the data were processed

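GLORI libraries of 1 group, wild-type HEK293T cells, were analysed in 2 replicates. The authors deposited a list of called sites for each. Per the file headers, a site has a count of A or G reads, a count of A reads and their ratio, a deposited fraction that equalled A over A plus G within 5e-06. Per the file headers the lists also hold a conversion fraction and a coverage signal for each gene, and a p-value for each site. The basis of the deposited gene coverage is unknown, and the deposited p-values were not used. Tools named in the submitters' processing notes are STAR, Bowtie, SAMtools and Trim Galore 0.6.6, with the build GRCh38; the site caller and annotation were not given in those sources. Both lists hold 72449 and 81554 sites with 5221660 and 6306522 A or G reads; these are not the library depths.

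Shared sites have the same chromosome, position and strand. Gene means weight sites equally. Counting errors come from binomial read sampling, with 0.5 added to the A count, and single-site intervals are 95% Wilson intervals on summed counts; both cover counting error only. Fisher's exact test with Benjamini-Hochberg adjustment at 0.05 was run on the whole table with scipy 1.17.1 and tested on simulated data. With 40-point differences at 200 of 60462 sites it recovered 51.5% of them, and 92.3% of the 91 with at least 50 reads in both files. Gene spans and start windows came from RefSeq (GRCh38.p14); all 7 symbols matched, and start windows were found for all but TEAD1. The members and lists were chosen with earlier results of these data known. For each member the highest, lowest and most covered shared site was named, and any site at the start; for the wider list, the genes with the most sites, WWTR1, CCN1 and CCN2. Other sites and the pair test were chosen after seeing the data. Exon, UTR and motif positions beyond the start windows were not analysed here.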

Additional observations from a re-analysis of the deposited data

Results flagged for a closer look

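One site within the span of a member was not assigned to it. Position 12730290 of chromosome 11, inside TEAD1 but on the minus strand, carries no gene name in either file. It had 20.9% in replicate 1 (43 reads) and 15.1% in replicate 2 (53 reads), a mean of 18.0% with a 95% Wilson interval of 11.4 to 26.5%. It drew attention as a signal outside the named sites; the limits of the lists place any listed site above a count of 0. It entered none of the values for TEAD1. The spans of the other 6 genes held no such site in either file.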

How the results depend on the processing

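With at least 30 reads in both files, the 93 shared sites of the 7 genes became 59 and their median level 31.2%; with at least 50 reads they became 32 and 22.9%. At 50 reads the sites at or above 80% fell from 18 to 2, and the wider list from 35 genes with a shared site to 22. A level of at least 20% raised the median to 52.5%. With 1 replicate alone there were 105 to 116 sites, a median of 33.8 to 40%, 35 to 38 genes of the wider list, 18 to 21 sites at or above 80%, and 8 called pairs either way. The count of sites that differ between replicates was 0 under every alternative run for it, and the 9 called pairs became 13 of 18 at a distance of up to 30 nt and 6 of 9 with at least 30 reads. Summed reads gave 27.8% for AMOT, and 41.0% for AMOTL1 against 35.1% for YAP1, which reversed their order. Over all sites listed in replicate 2, shared or not, LATS2 (66.8%) lay above LATS1 (56.3%). Depth limits the shallow genes most: AMOTL2 and LATS2 kept no site at 50 reads. The share of DRACH sites and of 3′ UTR sites, and the NNACN and RRACH alternatives, were planned and not run, since no genome was used here. No paired analysis was possible because there is 1 group.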
